A study of Bos taurus with 24 samples.

Results

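The 6 genes described here restrain or report signalling through the kinase ERK: the ERK phosphatases DUSP5 and DUSP6, the Sprouty family inhibitors SPRY1, SPRED1 and SPRED2, and the ETS transcription factor ETV4. They were chosen by gene symbol, with earlier results of these data known, from the 11937 genes of the deposited count table. Each symbol matched 1 row. The series asks how fibroblasts act through shared medium on bovine satellite cells, the resident stem cells of muscle. All satellite cells were wild type, came from the longissimus dorsi muscle and were plated as a mix of 3 cell lines at passage 3, so no group shows 1 animal or line. In coculture they shared medium with fibroblasts at passage 10 across pores of 0.4 µm, and in monoculture they were grown without them. RNA was sequenced from 6 groups of 4 libraries. Coculture and monoculture were sampled in proliferation, after 5 days in medium with 20% fetal bovine serum. They were also sampled 24 h and 72 h after a change to 10% horse serum, times that the labels call differentiation.

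Growth factors bind receptor tyrosine kinases, which switch on RAS and, through RAF and MEK, the kinase ERK. Active ERK induces transcription of its own inhibitors: phosphatases that remove its activating phosphates, and Sprouty and SPRED proteins that block the pathway nearer the receptor. In muscle, this pathway is known for keeping myoblasts dividing and for restraining their differentiation, and in mice SPRY1 is needed for satellite cells to return to quiescence.

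The files place DUSP5 (ENSBTAG00000020283) on chromosome 26 at 31063540 to 31076435, DUSP6 (ENSBTAG00000004587) on chromosome 5 at 19213736 to 19217415 and SPRY1 (ENSBTAG00000021245) on chromosome 17 at 34350005 to 34359038. SPRED1 (ENSBTAG00000032518) lies on chromosome 10 at 33847959 to 33966943, SPRED2 (ENSBTAG00000019456) on chromosome 11 at 63679272 to 63800845 and ETV4 (ENSBTAG00000008333) on chromosome 19 at 43446917 to 43462826. All 6 are annotated as protein coding, no pair shares a chromosome, and the sources used here do not give the build of these coordinates.

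Library totals ran from 11.5 to 34.96 M counts in coculture and from 14.5 to 23.9 M in monoculture. Levels are CPM, counts at a common library size, after TMM scaling, which adjusts for differences in depth and composition between libraries. They are not corrected for gene length, so levels are not compared between genes. Of 13 satellite cell and myoblast markers, 4 were analysed (DES, NCAM1, ITGA7 and MEF2C). The other 9, such as PAX7, MYF5, MYOD1, MYOG, MYH3 and ACTA1, are not among the genes analysed here. The labelled cell type could thus be checked only in part. In monoculture in proliferation the 4 summed to 118 to 123 CPM. There 9 fibroblast markers summed to 33577 to 36211 CPM and 6 smooth muscle and pericyte markers to 15105 to 15250 CPM. These sums hold different genes and do not give shares of cell types. Nuclear ribosomal RNA exceeded 1.5% of counts in 4 libraries taken after proliferation: replicates 3 and 4 of monoculture at 72 h, replicate 1 of coculture at 72 h and replicate 2 of coculture at 24 h. Mitochondrial mRNA took a smaller share of counts in coculture than in monoculture at each time, with no overlap: 1.60 to 1.70% and 2.00 to 2.10% in proliferation, 2.14 to 2.36% and 2.81 to 3.26% at 24 h, and 1.76 to 1.91% and 2.19 to 2.55% at 72 h in coculture and monoculture. Its part in the coculture differences below was not tested. All coculture 72 h libraries and 2 of the 4 coculture 24 h libraries were read in lane 7 and all others in lane 6, so at 72 h each lane holds 1 culture, and a lane covariate rests on the coculture 24 h libraries. A code of unstated meaning in the labels differs between the monoculture 24 h and 72 h libraries and all others, and at those times it cannot be told apart from culture. In monoculture it also cannot be told apart from the change from proliferation to 24 h or 72 h. It thus enters the changes of the coculture effect from proliferation as well. The labels do not tell whether replicates came from separate cultures, and the p-values measure only the spread between these libraries, which may be technical.

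The genes did not move as one. In proliferation DUSP6 and ETV4 rose in coculture while SPRY1 and SPRED1 fell. At 24 h DUSP6 rose and ETV4 fell, and at 72 h SPRED1 and SPRED2 rose and DUSP5 fell. Some fits that left out 1 library lost the calls of DUSP6 and ETV4 in proliferation, DUSP6 at 24 h and SPRED2 at 72 h. SPRED1 at 72 h lost its call with lane as a covariate. Calls rest on edgeR's quasi-likelihood test over all 11937 genes with an adjusted p under 0.05. Log2 fold changes are coculture over monoculture, with a standard error (SE) worked back from the F statistic of that test. In proliferation 4 of the 6 were called, where 59.0% of all genes were called. At 24 h 2 of 6 were called, against 23.8% of all genes, and at 72 h 3 of 6, against 50.5%. These shares are near the background. Their median log2 fold change was 0.18, 0.13 and 0.03 in order of time, and that of all genes was 0.00 each time. For size, 0.486% of all genes at 24 h and 2.88% at 72 h were called and changed at least 2-fold. This held for ETV4 at 24 h and for DUSP5 at 72 h. The 6 genes were chosen with earlier results of these data known, so these shares cannot test whether the set stands out.

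**Figure D1:**
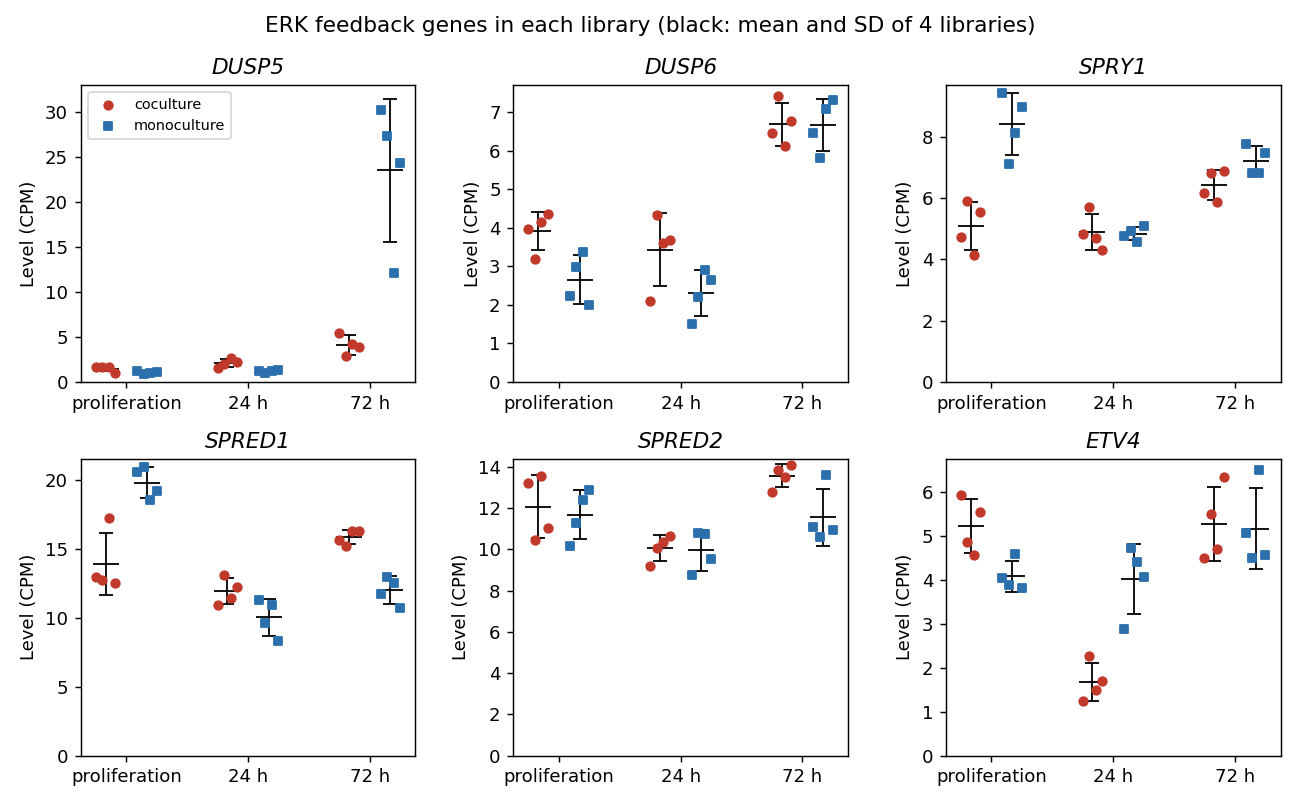
Level of each gene in CPM (vertical axis, from 0) in every library of coculture (red circles) and monoculture (blue squares) at each time, with the mean and SD of 4 libraries in black. DUSP5 is high in the monoculture libraries at 72 h, at 12.2 to 30.3 CPM, and ETV4 is low in the coculture libraries at 24 h, at 1.26 to 2.28 CPM.

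DUSP5 encodes a phosphatase that acts on ERK in the nucleus. At 72 h it stood at 5.45, 2.84, 4.25 and 3.94 CPM in coculture replicates 1 to 4, against 30.3, 27.4, 12.2 and 24.4 CPM in monoculture replicates 1 to 4. Every coculture library lay below every monoculture library, and 42.0% of all genes were separated at 72 h in one direction or the other. The fall was 5.76-fold (log2 -2.53 ± 0.19 SE, edgeR adjusted p = 2.80e-12). By an exact two-sided permutation test of log2 CPM the difference had p = 0.0286, the smallest that 4 against 4 libraries allow. Groups that do not overlap always give this value, so it adds nothing to their separation.

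For DUSP5 the 4 monoculture libraries at 72 h differed from each other more than those of any other group, with an SD of 33.8% of the mean. The lowest of them, replicate 3, held 2.14% nuclear ribosomal RNA. With the 4 libraries high in nuclear ribosomal RNA left out, the log2 fold change of DUSP5 at 72 h was -2.97, and with lane as a covariate it was -2.94. In the fit on the 8 libraries of these groups alone the adjusted p was 1.81e-06. Summed levels of the 4 satellite cell and myoblast markers were 159 to 184 CPM in coculture and 334 to 365 CPM in monoculture at 72 h, with DES, NCAM1 and ITGA7 lower (log2 -0.78, -0.16 and -2.01) and MEF2C not called. The 9 analysed fibroblast markers summed to 83152 to 85179 CPM in coculture and 87571 to 98739 CPM in monoculture, a sum made up mostly of COL1A1 and COL3A1. They moved both ways: PDGFRA, DCN and FBLN1 were higher (1.38, 0.26 and 0.19), PDGFRB and COL1A1 lower (-0.45 and -0.21) and 4 not called. All 6 analysed smooth muscle and pericyte markers were lower in coculture at 72 h, with sums of 9110 to 10144 CPM in coculture and 13809 to 16211 CPM in monoculture, as was FABP4 (-1.05), 1 of 2 analysed adipocyte markers. VWF, the only analysed endothelial marker, was higher at 72 h (log2 0.80), at 3.91 CPM in coculture and 2.25 CPM in monoculture. CD68, the only analysed leukocyte marker, was not called. The part of these markers in the fall of DUSP5 was not tested. In such bulk samples, fewer cells of a type and less RNA per cell cannot be told apart.

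Before 72 h DUSP5 was scarce, at 17 to 60 counts per library. In proliferation its level was 1.01 to 1.63 CPM in coculture and 0.848 to 1.18 CPM in monoculture. At 24 h it was 1.55, 2.01, 2.64 and 2.21 CPM in coculture replicates 1 to 4, against 1.19, 1.00, 1.26 and 1.32 CPM in monoculture replicates 1 to 4. The 24 h groups did not overlap, which held for 24.4% of all genes, but the test did not call the difference (log2 0.84 ± 0.32, edgeR adjusted p = 0.0600). DESeq2 called it (adjusted p = 0.0346), as did the fit on those 8 libraries alone (adjusted p = 0.00726). So did the fit that left out the libraries high in nuclear ribosomal RNA (adjusted p = 0.00389) and the fit without coculture replicate 1 (adjusted p = 0.0479). Of the 8 alternatives other than leaving out 1 library, 4 called it. Their log2 values ran from 0.60 to 0.86 and their adjusted p-values from 0.00389 to 0.356. Leaving out 1 library called it in 1 of 8 fits. The coculture libraries at 2.64 and 2.21 CPM were those read in lane 7. In proliferation the difference of DUSP5 was not called either (log2 0.54 ± 0.35, adjusted p = 0.189), and was called in the fit on those 8 libraries alone (adjusted p = 0.0465).

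DUSP6 encodes a phosphatase that acts on ERK in the cytoplasm and is a common readout of ERK activity. In proliferation it stood at 3.96, 3.20, 4.16 and 4.35 CPM in coculture replicates 1 to 4, against 2.24, 2.99, 3.38 and 2.01 CPM in monoculture replicates 1 to 4. The groups overlapped by 1 library on each side. The rise was called (log2 0.52 ± 0.19, edgeR adjusted p = 0.0182), but not without coculture replicate 4 or monoculture replicates 1 or 4 (adjusted p = 0.0546, 0.0541 and 0.0832). By the exact permutation test the difference had p = 0.0571.

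At 24 h DUSP6 measured 2.09, 4.34, 3.61 and 3.69 CPM in coculture replicates 1 to 4, against 1.51, 2.22, 2.90 and 2.64 CPM in monoculture replicates 1 to 4. Coculture replicate 1 lay within the range of monoculture. The 24 h rise (log2 0.57 ± 0.20, edgeR adjusted p = 0.0313, exact permutation p = 0.143) lost its call when coculture replicate 2, 3 or 4 or monoculture replicate 1 or 2 was left out, with log2 values of 0.45, 0.56, 0.54, 0.44 and 0.55. In the 2 coculture libraries of lane 6 the DUSP6 difference was 0.49 (adjusted p = 0.194), and it was not called in the fit on the 8 libraries alone (adjusted p = 0.0636) or with the libraries high in nuclear ribosomal RNA left out (0.45, adjusted p = 0.123). By 72 h DUSP6 averaged 6.69 ± 0.555 CPM in coculture and 6.67 ± 0.674 CPM in monoculture (SD, n = 4), a difference of 0.01 on the log2 scale with a 95% interval of -0.30 to 0.33. The 72 h libraries of DUSP6 overlapped between the cultures, at the time when those of DUSP5 were furthest apart.

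**Figure D2:**
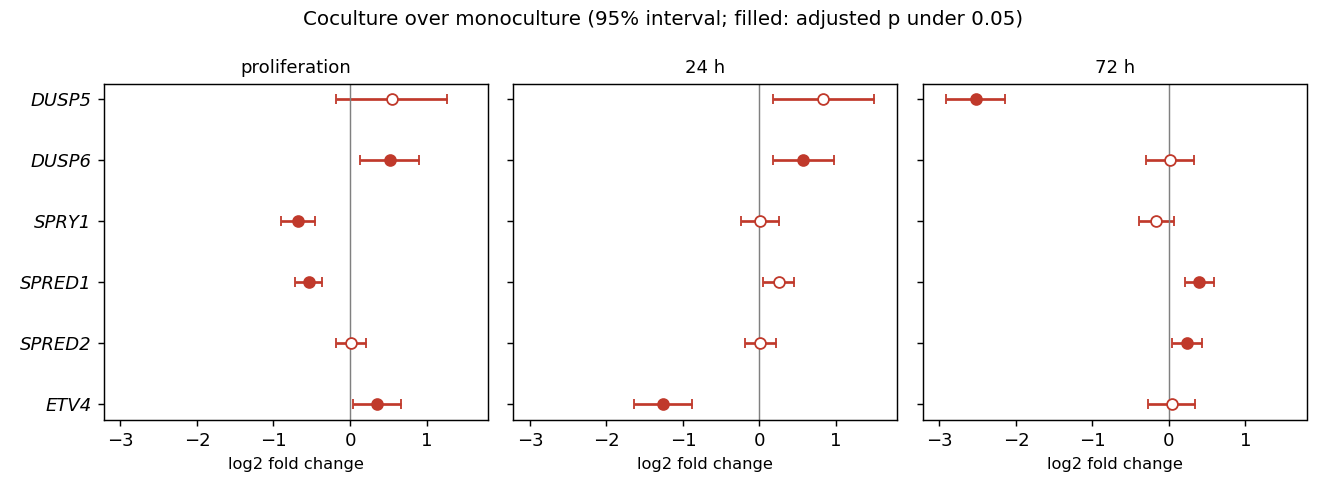
Log2 fold change of coculture over monoculture (horizontal axis) for each gene at each time, with 95% intervals; filled points have an edgeR adjusted p under 0.05. The points for DUSP5 at 72 h (-2.53) and ETV4 at 24 h (-1.26) lie furthest to the left.

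SPRY1 encodes a Sprouty protein that dampens receptor signalling to RAS. In proliferation it stood at 4.74, 5.90, 4.16 and 5.54 CPM in coculture replicates 1 to 4, against 9.44, 7.13, 8.12 and 8.97 CPM in monoculture replicates 1 to 4. All coculture libraries lay below all monoculture libraries, which held for 53.0% of all genes in one direction or the other. SPRY1 fell 1.60-fold (log2 -0.68 ± 0.11, edgeR adjusted p = 5.13e-06; exact permutation p = 0.0286). At 24 h the means were 4.90 ± 0.59 CPM in coculture and 4.84 ± 0.22 CPM in monoculture (SD, n = 4; log2 0.01, 95% interval -0.24 to 0.26). At 72 h they were 6.44 ± 0.50 and 7.22 ± 0.48 CPM in coculture and monoculture (log2 -0.16, 95% interval -0.39 to 0.06, adjusted p = 0.228).

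SPRED1 and SPRED2 encode membrane proteins that block activation of the RAF kinases and bring the RAS inactivator neurofibromin to the membrane. In proliferation SPRED1 stood at 12.97, 12.7, 17.2 and 12.5 CPM in coculture replicates 1 to 4, against 20.6, 20.9, 18.6 and 19.2 CPM in monoculture replicates 1 to 4. The groups did not overlap, as for 53.0% of all genes in either direction, with coculture replicate 3 nearest to monoculture. SPRED1 fell by 0.54 ± 0.087 on the log2 scale (edgeR adjusted p = 5.08e-06). In proliferation nuclear ribosomal RNA was 0.742 to 1.07% of counts in coculture and 1.23 to 1.40% in monoculture. The 4 satellite cell and myoblast markers summed to 162 to 179 CPM in coculture and 118 to 123 CPM in monoculture then, with DES and NCAM1 higher (log2 0.80 and 0.24) and ITGA7 and MEF2C not called (-0.16 and -0.074). The 9 fibroblast markers summed to 40735 to 41971 CPM in coculture and 33577 to 36211 CPM in monoculture, where COL1A1 was at 25265 CPM and 17862 CPM. Of the 9, 4 were higher and LUM, FAP and PDGFRA lower (-0.44, -0.34 and -0.14), and of 6 smooth muscle and pericyte markers 4 were higher and 2 lower. Their part in the proliferation differences was not tested.

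The sign of SPRED1 turned over time. At 24 h its mean was 11.9 ± 0.94 CPM in coculture and 10.0 ± 1.34 CPM in monoculture (SD, n = 4), a difference that was not called (log2 0.25 ± 0.097, edgeR adjusted p = 0.0590). It was called without coculture replicate 1 or monoculture replicates 1 or 3 (adjusted p = 0.0475, 0.0310 and 0.0474). At 72 h SPRED1 stood at 15.6, 15.2, 16.3 and 16.3 CPM in coculture replicates 1 to 4, against 11.7, 12.97, 12.6 and 10.7 CPM in monoculture replicates 1 to 4. Every coculture library lay above every monoculture library, as for 42.0% of all genes in either direction. The rise was 0.40 ± 0.092 on the log2 scale (adjusted p = 0.000643), and with lane as a covariate it was 0.42 and no longer called (adjusted p = 0.0523).

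SPRED2 had group means between 9.95 and 13.6 CPM. In proliferation its difference was 0.02 on the log2 scale (95% interval -0.18 to 0.21) and at 24 h 0.01 (-0.19 to 0.21). At 72 h its libraries ranged from 12.8 to 14.1 CPM in coculture and from 10.6 to 13.6 CPM in monoculture, so that the groups overlapped through monoculture replicate 3. The rise of SPRED2 was called (log2 0.24 ± 0.095, edgeR adjusted p = 0.0393, exact permutation p = 0.0857). It lost the call without coculture replicate 2, 3 or 4 or monoculture replicate 1, 2 or 4, with log2 values of 0.23, 0.24, 0.22, 0.21, 0.20 and 0.22, and with lane as a covariate (0.11, adjusted p = 0.660).

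ETV4 is a PEA3 family transcription factor induced by FGF and ERK signalling. At 24 h it stood at 1.26, 2.28, 1.49 and 1.71 CPM in coculture replicates 1 to 4, against 2.89, 4.72, 4.42 and 4.08 CPM in monoculture replicates 1 to 4. All 4 coculture libraries lay below all 4 monoculture libraries, and 24.4% of all genes were separated at 24 h in one direction or the other. ETV4 fell 2.40-fold (log2 -1.26 ± 0.18, edgeR adjusted p = 5.28e-06; exact permutation p = 0.0286), and in the libraries of lane 6 alone, with 2 in coculture, the log2 fold change was -1.19 (adjusted p = 0.000774). The satellite cell and myoblast markers summed to 156 to 183 CPM in coculture and 237 to 259 CPM in monoculture at 24 h, with ITGA7 and NCAM1 lower (log2 -1.17 and -0.40) and the other 2 not called. The fibroblast markers, mostly COL1A1 and COL3A1 by level, summed to 59510 to 67261 CPM in coculture and 61629 to 68651 CPM in monoculture. Of these, PDGFRA, DCN and LUM were higher (0.47, 0.76 and 0.30) and PDGFRB, FAP and FBLN1 lower (-0.14, -0.21 and -0.11). Of 6 smooth muscle and pericyte markers 2 were lower and 4 not called, and FABP4 was lower (-0.62). Their part in the fall of ETV4 was not tested.

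In proliferation ETV4 stood at 5.94, 4.87, 4.57 and 5.54 CPM in coculture replicates 1 to 4, against 4.04, 3.89, 4.59 and 3.82 CPM in monoculture replicates 1 to 4. The lowest coculture library lay just below the highest monoculture library. The call of this rise (log2 0.35 ± 0.15, edgeR adjusted p = 0.0466, exact permutation p = 0.0571) was lost without coculture replicate 1 or 4 or monoculture replicate 1, 2 or 4, with log2 values of 0.29, 0.33, 0.35, 0.33 and 0.32. It was also lost with library sizes alone (log2 0.29, adjusted p = 0.104). At 72 h ETV4 averaged 5.27 ± 0.84 CPM in coculture and 5.17 ± 0.92 CPM in monoculture (SD, n = 4; log2 0.04, 95% interval -0.27 to 0.35).

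The coculture effect itself changed between times for 4 of the genes. These differences share libraries, and each was tested in the same edgeR fit. From proliferation to 24 h the effect rose for SPRY1 by 0.69 ± 0.16 (adjusted p = 0.000839) and for SPRED1 by 0.79 ± 0.13 (adjusted p = 1.17e-05), and fell for ETV4 by 1.62 ± 0.24 (adjusted p = 2.59e-06). Thus 3 of 6 were called, where 50.5% of all genes were. From 24 h to 72 h it fell for DUSP5 by 3.36 ± 0.38 on the log2 scale (adjusted p = 7.25e-08), the largest change of the coculture effect among all 11937 genes in this fit, and rose for ETV4 by 1.30 ± 0.24 (adjusted p = 0.000145). That is 2 of 6, against 23.7% of all genes. The change of DUSP6 over this interval was -0.56 ± 0.25 (adjusted p = 0.103) and was called without coculture 24 h replicate 1 (-0.72, adjusted p = 0.0227). From proliferation to 72 h, DUSP5 fell by 3.07 ± 0.40, SPRY1 rose by 0.52 ± 0.16 and SPRED1 by 0.94 ± 0.13 (adjusted p = 1.56e-07, 0.00549 and 2.76e-07), 3 of 6 against 62.3%. DUSP6 was called as well without coculture proliferation replicate 2 or monoculture proliferation replicate 3 (-0.63 and -0.64), and SPRED2 without monoculture 72 h replicate 3 (0.31).

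Over the first 24 h after the change of serum, ETV4 fell in coculture, and SPRED1, SPRY1 and SPRED2 fell in monoculture; the difference between the cultures, tested above, was called for ETV4, SPRED1 and SPRY1 and not for SPRED2. In coculture ETV4 fell by 1.62 ± 0.18 on the log2 scale (edgeR adjusted p = 1.22e-08), to 1.68 ± 0.44 CPM at 24 h, against 5.23 ± 0.62 CPM in proliferation (SD, n = 4), and it was the only member called of 6, where 43.2% of all genes were called. SPRED2 in coculture was called as well without proliferation replicate 2 or 4 (-0.31 and -0.26), by DESeq2 (-0.24) and with library sizes alone (-0.36), which also called SPRED1 (-0.32). DUSP5 was called higher there in the fit on those 8 libraries (0.51) and with the libraries high in nuclear ribosomal RNA left out (0.52). In monoculture ETV4 was at 4.03 ± 0.80 CPM at 24 h and 4.08 ± 0.35 CPM in proliferation (adjusted p = 0.997). There SPRED1 fell by 0.98 ± 0.091, SPRY1 by 0.79 ± 0.11 and SPRED2 by 0.23 ± 0.097 (adjusted p = 8.36e-11, 3.30e-07 and 0.0391), 3 of 6 against 68.5%. The code of unstated meaning in the labels also differs between these monoculture groups. The call of SPRED2 in monoculture was lost without 24 h replicate 1 or 4 or proliferation replicate 3 or 4, with log2 values of -0.17, -0.21, -0.20 and -0.17, and among genes with a mean of at least 5 CPM (-0.21, adjusted p = 0.0530).

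Between 24 h and 72 h all members rose in coculture, against 48.2% of all genes called and 24.4% called higher, and in each of the 6 the 72 h libraries lay above the 24 h libraries. Counted in both directions, such separation held for 46.3% of all genes. ETV4 rose most there (log2 1.64 ± 0.18, edgeR adjusted p = 4.13e-09), followed by DUSP5 (0.96 ± 0.26), DUSP6 (0.95 ± 0.17), SPRED2 (0.43 ± 0.096), SPRED1 (0.41 ± 0.091) and SPRY1 (0.40 ± 0.12). In coculture the 72 h libraries all come from lane 7 and the 24 h libraries from both lanes. With lane as a covariate all 6 remained called.

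In monoculture 4 of 6 rose between 24 h and 72 h, against 53.9% of all genes called and 27.3% called higher. DUSP5 rose 20.0-fold (log2 4.32 ± 0.23, edgeR adjusted p = 2.97e-16), the ninth largest change of all genes in this comparison, and DUSP6 rose by 1.51 ± 0.18. SPRY1 rose by 0.58 ± 0.12 and SPRED1 by 0.26 ± 0.098. The call of SPRED1 was lost without 24 h replicate 2 or 4 or 72 h replicate 2 or 3 (log2 0.24, 0.19, 0.22 and 0.24) with library sizes alone (0.13), and in the fit on those 8 libraries (0.26, adjusted p = 0.0575). ETV4 (0.34 ± 0.16, adjusted p = 0.0679) was called without 24 h replicate 2 or 72 h replicate 2 (0.43 and 0.40), and SPRED2 (0.20 ± 0.099, adjusted p = 0.0845) was not called.

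**Figure D3:**
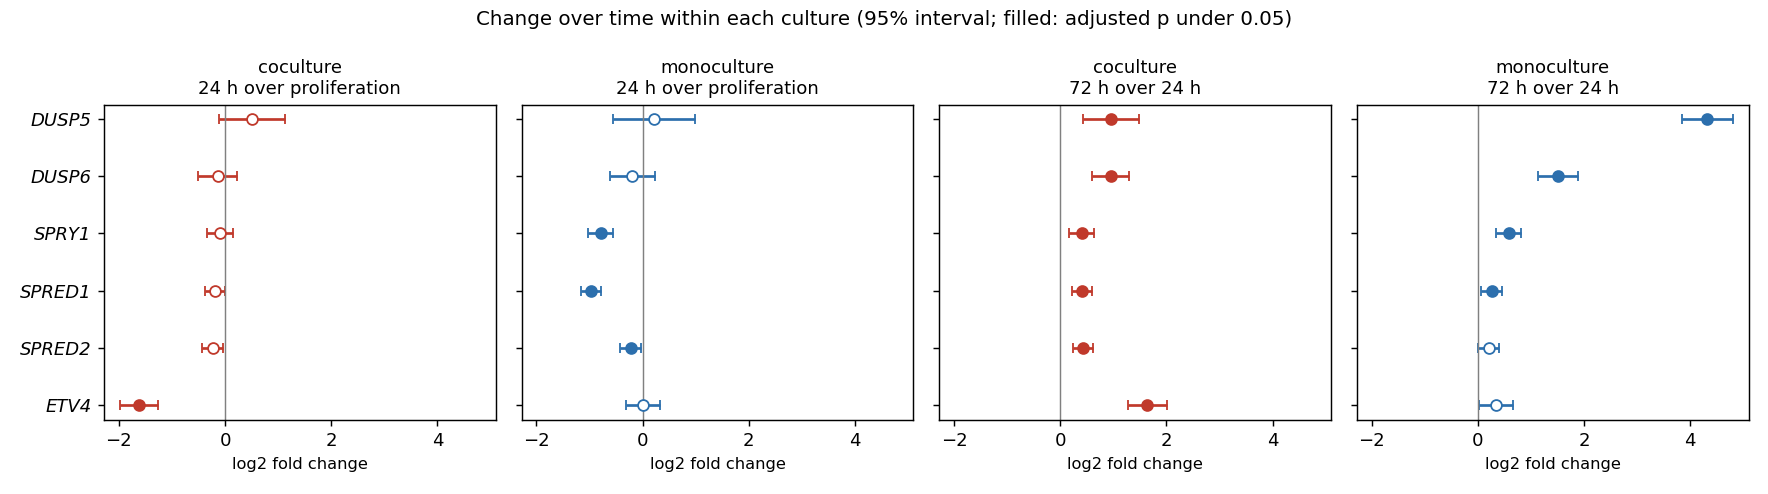
Log2 fold change of 24 h over proliferation and of 72 h over 24 h (horizontal axis) within coculture (red) and monoculture (blue), with 95% intervals; filled points have an edgeR adjusted p under 0.05. ETV4 in coculture goes down by 1.62 and up by 1.64, while DUSP5 in monoculture goes up by 4.32.

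Over the whole course from proliferation to 72 h, DUSP5 rose in coculture by 1.46 ± 0.27 and DUSP6 by 0.81 ± 0.16, and SPRY1 and SPRED1 rose by 0.30 ± 0.11 and 0.22 ± 0.090 (edgeR adjusted p = 2.91e-05, 9.60e-05, 0.0236 and 0.0365), 4 of 6 against 60.3% of all genes. SPRY1 lost the call without 72 h replicate 2 or 4 or proliferation replicate 1 or 3 (0.28, 0.27, 0.26 and 0.24). SPRED1 lost it without 72 h replicate 1, 3 or 4 or proliferation replicate 1, 2 or 4 (0.22, 0.21, 0.20, 0.20, 0.17 and 0.18), while SPRED2 was called without proliferation replicate 1 or 3 (0.25 each). With lane as a covariate DUSP5 was at 1.04 and DUSP6 at 0.65, neither called (adjusted p = 0.103 and 0.102), and only SPRY1 of the 6 kept the call (0.54, adjusted p = 0.0365). With library sizes alone SPRY1 and SPRED1 were not called (0.19 and 0.098). In monoculture DUSP5 rose by 4.53 ± 0.24 and DUSP6 by 1.32 ± 0.18, and SPRED1 fell by 0.72 ± 0.090 (adjusted p = 7.28e-17, 7.78e-08 and 2.21e-08), 3 of 6 against 75.0%. Here too the label code of unstated meaning changes together with time. ETV4 was also called there without 72 h replicate 2 or 4 or proliferation replicate 3 (0.40, 0.38 and 0.40), and SPRY1 without proliferation replicate 2 (-0.29). With library sizes alone SPRY1 and SPRED2 were called lower in monoculture at 72 h than in proliferation (-0.53 and -0.35). ETV4 in coculture was at 5.27 CPM at 72 h and 5.23 CPM in proliferation, so that its low level was seen at 24 h.

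Ordered by mean level, DUSP5 ran from monoculture at 72 h over coculture at 72 h to coculture at 24 h, and these 3 groups did not overlap each other. Coculture at 24 h and the groups below it overlapped one with the next. For DUSP6 both 72 h groups overlapped each other and lay above the other 4. For SPRED1 monoculture in proliferation lay above all other groups, and for ETV4 coculture at 24 h lay below all others. For SPRY1 and SPRED2 each group overlapped the next in order. The share of all genes with groups set apart in these ways is not given here.

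The rest of the pathway was described from 4 lists. Of 26 analysed receptors, growth factors and adaptors upstream of ERK, 3 were higher and 10 lower in coculture in proliferation, 5 and 7 at 24 h, and 10 and 10 at 72 h. Those called were 13, 12 and 20 of 26, where 59.0%, 23.8% and 50.5% of all genes were called. The list had a median log2 fold change of 0.00 at 24 h and 72 h and -0.01 in proliferation. The mitogen FGF2 was at 22.7 CPM in coculture and 48.9 CPM in monoculture in proliferation (log2 -1.11, edgeR adjusted p = 1.08e-12), FGF10 fell by 1.05 and PDGFD by 0.58. FGF7, a growth factor for epithelial cells, rose by 1.56 at 24 h and by 2.04 at 72 h. The HGF receptor MET fell at 24 h (-0.54), the PDGF receptor PDGFRA rose at 24 h and 72 h (0.47 and 1.38), and its ligand PDGFA fell at 72 h (-0.81).

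Among 25 analysed RAS, RAF, MEK and ERK genes and scaffolds, 12 were higher and 7 lower in coculture in proliferation, 4 and 1 at 24 h, and 7 and 4 at 72 h, with medians of 0.13, 0.05 and -0.03. Those called were 19, 5 and 11 of 25, against 59.0%, 23.8% and 50.5% of all genes. SHOC2, a scaffold for RAF activation, fell in proliferation (log2 -0.72, edgeR adjusted p = 9.75e-12), as did the MEK scaffold LAMTOR3 (-0.54). The RAF and MEK scaffold KSR1 rose at 24 h and 72 h (0.74 and 0.87). The ERK-activated kinase RPS6KA3 rose at 24 h and 72 h (0.25 and 0.46), and PEA15, which holds ERK in the cytoplasm, fell at 72 h (-0.54).

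Of 18 further MAP kinase phosphatases and inhibitors of RAS to ERK signalling, 4 were higher and 6 lower in coculture in proliferation, 3 and 3 at 24 h, and 5 and 6 at 72 h, with medians of -0.01, 0.06 and 0.01. This is 10, 6 and 11 of 18 called, set against the same shares of all genes, 59.0%, 23.8% and 50.5%. ERRFI1, an inhibitor of the EGF receptor, rose in proliferation and at 24 h (log2 0.52 and 0.72) and fell at 72 h (-0.68, edgeR adjusted p = 1.75e-07). DUSP1, a phosphatase of several MAP kinases, stood at 379 ± 9.88 CPM in coculture and 625 ± 67.4 CPM in monoculture at 72 h (SD, n = 4; -0.72), and DUSP10, which acts mainly on p38 and JNK, fell at 24 h and 72 h (-0.38 and -0.68). RASA2, which encodes a RAS GTPase activating protein, fell in proliferation (-0.48), was at 0.11 and not called at 24 h, and rose at 72 h (0.53). RASA3, of the same family, fell at 24 h (-0.39) and was not called in proliferation (0.075) or at 72 h (-0.11), and the phosphatase subunit PPP2R5A fell in proliferation (-0.41).

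Of 37 analysed ERK responsive transcription factors and targets, 22 were higher and 5 lower in coculture in proliferation, 7 and 12 at 24 h, and 9 and 16 at 72 h, which is 27, 19 and 25 of 37 called where all genes gave 59.0%, 23.8% and 50.5%. Their median log2 fold change was 0.19, -0.06 and -0.12, against 0.00 for all genes. EGR1, an early transcription factor, rose at 24 h to 30.4 CPM in coculture, against 2.69 CPM in monoculture (log2 3.47, edgeR adjusted p = 1.53e-18), at the time when ETV4 fell, and it rose by 1.05 in proliferation. The orphan receptor gene NR4A1 rose in proliferation and at 24 h (0.86 and 1.40) and fell at 72 h (-1.13), PLAUR, the urokinase receptor, rose in proliferation (0.94), the stress cytokine GDF15 fell at 24 h and 72 h (-1.07 and -1.21) and PLAU, which encodes urokinase, fell at 72 h (-0.80).

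**Figure D4:**
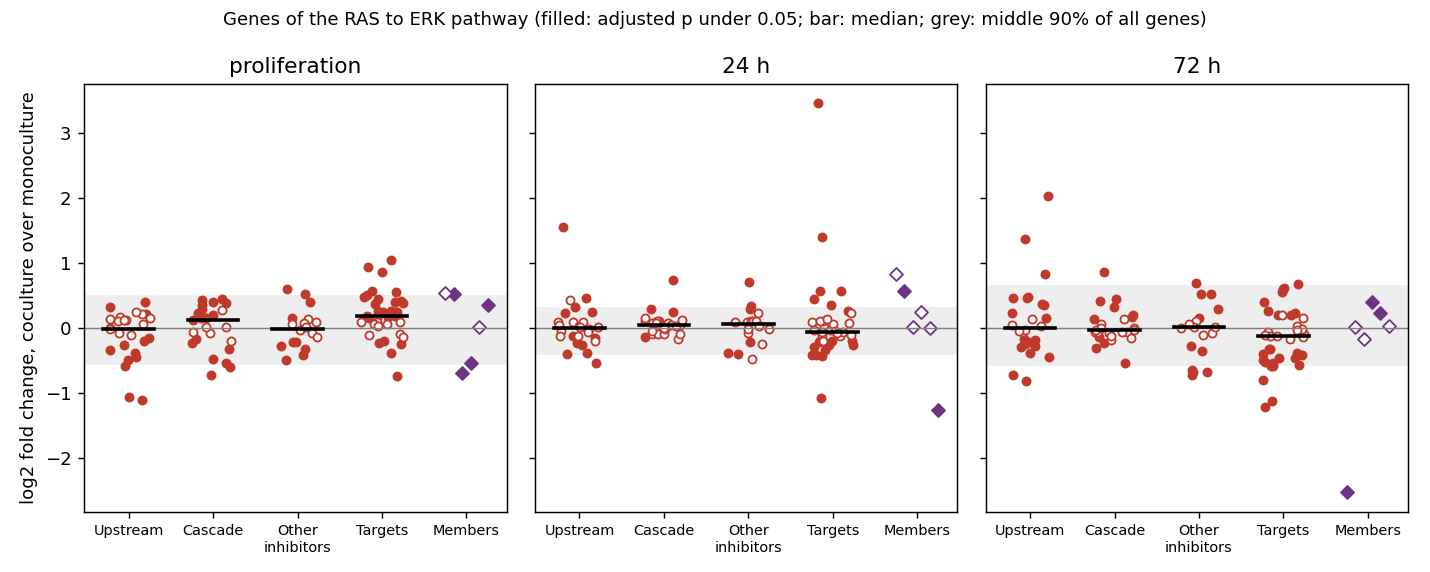
Log2 fold change of coculture over monoculture (vertical axis) at each time for the genes of the 4 pathway lists (red circles) and the 6 members (purple diamonds, from left to right DUSP5, DUSP6, SPRY1, SPRED1, SPRED2 and ETV4); filled points have an edgeR adjusted p under 0.05, bars are list medians and the grey band holds the middle 90% of all genes. EGR1 at 24 h (3.47) and DUSP5 at 72 h (-2.53) lie furthest from 0.

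The genes whose pattern was most like each member were found among 9352 genes with a symbol of their own and a mean of at least 5 CPM, by Pearson's r of log2 CPM over the 24 libraries, which form 6 groups and share their differences in culture and time. For DUSP5 these were the stress-induced factor ATF3 (r = 0.97), RHOB (0.96) and BTG2 (0.95), and without the monoculture 72 h libraries the values were 0.83, 0.89 and 0.78. For ETV4 they were CSF1 (0.95), SQSTM1 (0.88) and CCND1 (0.86). Without the coculture 24 h libraries r was 0.85 for CSF1, 0.28 for SQSTM1 and 0.69 for CCND1, so that the likeness of SQSTM1 rested on that group.

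The genes most like DUSP6 were ERGIC1, SH3RF1 and BCR (r = 0.90, 0.90 and 0.89, and without the coculture 72 h libraries 0.88, 0.88 and 0.85). The monoculture 72 h libraries, where DUSP6 was about as high, stayed in. These values thus cannot tell whether the likeness rests on the 72 h libraries. The genes most like SPRY1 were ADAMTS20, BCL10 and RNF14 (r = 0.89, 0.88 and 0.88). Without the monoculture proliferation libraries these were 0.84, 0.84 and 0.82. STK3, PPP4R2 and CFAP97 were most like SPRED1 (0.93, 0.92 and 0.91, and without the monoculture proliferation libraries 0.86, 0.85 and 0.81). NID1, ARHGAP35 and CLMP were most like SPRED2 (0.84, 0.80 and 0.79). Without the coculture 72 h libraries their values were 0.75, 0.70 and 0.66. CSF1, most like ETV4, was at 120 CPM in coculture and 195 CPM in monoculture at 24 h. ATF3, most like DUSP5, was at 29.5 CPM in coculture and 57.3 CPM in monoculture at 72 h.

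In the authors' deposited tables the log2 fold change of DUSP5 at 72 h was -2.52 with a standard error of 0.34. This is wider than the 0.19 of the fit on all 24 libraries, which uses 1 spread per gene for all groups. The 0.19 was worked back from the F statistic, so these errors are not the same measure. For DUSP5 at 24 h the authors' deposited table gives 0.83 with an adjusted p of 0.0132, under the threshold, and for DUSP6 at 24 h 0.57 with an adjusted p of 0.0576, above it. For SPRED2 at 72 h the authors' deposited table has an adjusted p of 0.0640, also above the threshold. The other 15 values fell on the same side in both.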

How the data were processed

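RNA sequencing counts per gene of 24 labelled libraries in 6 groups were used as deposited; 12 further columns of the count table that match no label were not used. Per the submitters' processing notes FastQC, STAR, RSEM and DESeq2 were run, and their versions and the genome build are not given in the sources used here. The authors' deposited tables also hold log2 fold changes, p-values and a mean signal of scaled counts per comparison, which were compared with the fit but not used in it.

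Counts were analysed with R 4.3.3 and edgeR 4.0.16 (limma 3.58.1): TMM scaling, filterByExpr, which removed 0 genes, 1 mean per group over all 24 libraries, quasi-likelihood F tests and Benjamini-Hochberg adjustment over 11937 genes, with calls at an adjusted p under 0.05. All 6 genes passed. The lowest count of any gene in a library was 6. The coculture effect at 2 times was compared by an interaction contrast. Log2 fold changes are those of the fit, and log2 CPM has a prior count of 2. The code was tested on simulated data. No pair of libraries agreed within sampling noise.

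The 6 genes and the gene and marker lists were chosen with earlier results of these data known. From each of the 4 pathway lists and each coculture against monoculture comparison, the text names the 3 called genes with the largest absolute log2 fold change and at least 5 CPM in the higher group. One item that this rule names is not reported here. Alternatives were library sizes alone, DESeq2 1.42.0, a mean of at least 5 CPM, 1 library left out, a replicate block, the groups compared alone, a lane covariate, lane 6 alone at 24 h, and omission of the 4 libraries with over 1.5% nuclear ribosomal RNA.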

Additional observations from a re-analysis of the deposited data

Results flagged for a closer look

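In 3 of 36 sets of 4 libraries tested (6 genes in 6 groups), 1 library lay far from the other three by Dixon's test, where chance gives about 1 in 20. DUSP5 was at 1.01 CPM in coculture proliferation replicate 4, and the next library was at 1.62 CPM. SPRED1 was at 17.2 CPM in coculture proliferation replicate 3, with the next at 12.97 CPM. SPRED2 was at 13.6 CPM in monoculture 72 h replicate 3, with the next at 11.1 CPM.

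The effect of coculture differed between times in 8 edgeR contrasts, over the 6 genes and all pairs of times. Such changes were common: 50.5% of all genes were called from proliferation to 24 h, 23.7% from 24 h to 72 h and 62.3% from proliferation to 72 h. From proliferation to 24 h the log2 effect changed by 0.69 for SPRY1, by 0.79 for SPRED1 and by -1.62 for ETV4. From 24 h to 72 h it changed by -3.36 for DUSP5 and by 1.30 for ETV4, and from proliferation to 72 h by -3.07 for DUSP5, 0.52 for SPRY1 and 0.94 for SPRED1.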

How the results depend on the processing

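Under every alternative run, each leave-one-out fit included, SPRY1 and SPRED1 stayed called lower in coculture in proliferation, ETV4 at 24 h (log2 -1.44 to -1.16) and DUSP5 at 72 h (-2.97 to -2.37). No called value changed sign. The shares of all genes called under the alternatives are not given here. The counts of called genes that moved by more than 1.5 times were these. Coculture against monoculture at 24 h had 2 called, against 1 in lane 6 alone, 1 with a lane covariate and 0 with a mean of at least 5 CPM, which keeps 4 of the 6 genes and drops DUSP6 and ETV4. At 72 h it had 3, against 1 with a lane covariate, and in proliferation 4, against 2 with a mean of at least 5 CPM. The change of effect from 24 h to 72 h had 2, against 1 with that filter. Coculture at 24 h over proliferation had 1, against 2 with DESeq2, 3 with library sizes, 0 with the CPM filter, 2 in the groups compared alone, 2 with the replicate block and 2 without the libraries rich in ribosomal RNA. Coculture at 72 h over proliferation had 4, against 1 with a lane covariate and 2 with library sizes, and monoculture had 3, against 5 with library sizes. The cause was not tested. Alternatives gave adjusted p-values of 0.00389 to 0.356 for DUSP5 and 0.00418 to 0.194 for DUSP6 at 24 h, 0.0310 to 0.204 for SPRED1 at 24 h, 1.13e-05 to 0.0523 for SPRED1 and 0.00162 to 0.660 for SPRED2 at 72 h, and 0.00702 to 0.0832 for DUSP6 and 0.0232 to 0.132 for ETV4 in proliferation. Library sizes alone moved the median log2 fold change of all genes to -0.13 and -0.11 in these coculture comparisons, -0.32 in that of monoculture, -0.19 and -0.13 in the other monoculture comparisons, 0.13 for coculture against monoculture at 72 h, and 0.14 and 0.21 for the change of that effect from 24 h and from proliferation.

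Leaving out 1 library gave 2 to 4 called in proliferation, 1 to 4 at 24 h and 2 to 3 at 72 h for coculture against monoculture. For the change of effect it gave 3 to 3, 2 to 3 and 3 to 4 in the order reported. Within coculture it gave 1 to 2, 6 to 6 and 2 to 4, and within monoculture 2 to 3, 3 to 4 and 3 to 4. For these fits too the shares of all genes called are not given here.

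Uncalled values near 0 changed sign. The change of effect from proliferation to 24 h was -0.031 for DUSP6 with a lane covariate and -0.069 without the ribosomal RNA-rich libraries, and 0.058 for SPRED2 with library sizes. At 24 h SPRED2 was at -0.053 in lane 6 alone and with a lane covariate, and SPRY1 at -0.073 without the ribosomal RNA-rich libraries. At 72 h DUSP6 was at -0.15 and SPRY1 at 0.073 with a lane covariate. SPRED2 in proliferation was at -0.052 with library sizes. SPRY1 in coculture at 24 h over proliferation was at 0.019 with a lane covariate, and ETV4 in coculture at 72 h over proliferation at -0.095 with library sizes. ETV4 in monoculture at 24 h over proliferation was at -0.00100 with DESeq2, -0.19 with library sizes, -0.00296 in the groups compared alone and -0.00225 with the replicate block. With 1 library left out, sign changes gave ranges of -0.083 to 0.22 for DUSP6 and -0.086 to 0.051 for SPRED2 in the first change of effect. At 24 h they were -0.043 to 0.056 for SPRED2 and -0.073 to 0.075 for SPRY1, at 72 h -0.049 to 0.056 for DUSP6 and -0.072 to 0.16 for ETV4, and in proliferation -0.039 to 0.097 for SPRED2. Over time they were -0.27 to 0.023 for DUSP6 and -0.18 to 0.0068 for SPRY1 in coculture at 24 h, -0.088 to 0.090 for ETV4 in coculture at 72 h over proliferation, -0.095 to 0.12 for ETV4 in monoculture at 24 h and -0.11 to 0.028 for SPRED2 in monoculture at 72 h over proliferation.

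Replicate numbers did not pair the libraries: same-numbered deviations correlated between -0.14 and 0.12 over 60 pairs. With the replicate block 3, 3 and 3 of the 6 were called for coculture against monoculture in proliferation, at 24 h and at 72 h. The main fit called 59.0%, 23.8% and 50.5% of all genes at these times, and the shares with the block are not given here. With the block ETV4 lost its call in proliferation (edgeR adjusted p = 0.0508) and DUSP5 gained one at 24 h (adjusted p = 0.0497). Before 72 h DUSP5 rested on 17 to 60 counts per library.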
